A study of Mus musculus with 9 samples.

Results

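The genes described here are 32 genes of the postsynaptic scaffold and of the kinases that act at synapses. They were chosen by gene symbol, with earlier results of these data known. They comprise 3 Shank genes, 4 Dlg genes, 4 Dlgap genes, 3 Homer genes, 5 calcium/calmodulin-dependent kinase genes, 3 neuroligins, 4 Lrrtm genes and 6 further postsynaptic genes. All 32 had a probe set of their own among 19938 genes on the array, and all 32 passed the filter on dim signal that left 16323 genes to test. Shank2, with 3 probe sets, and Dlgap1 and Homer2, with 2 each, were represented by their brightest probe set on average.

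Total RNA was measured on Affymetrix Mouse Gene 1.0 ST arrays in mice at postnatal day 13. The groups were Ptch1 KO medulloblastoma, a tumour of the cerebellum, Sufu KO cerebellum and wildtype cerebellum, with 3 arrays each. The labels used here give no strain, no Cre driver and no deleted exon for either knockout. They also do not say that replicates were separate animals, so the p-values cover the scatter among these samples, some of which may be technical. With 3 arrays a group, precision is limited throughout.

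Shank, Dlg, Dlgap and Homer proteins are the layered scaffold under excitatory synapses. Dlg proteins bind glutamate receptors and neuroligins at the membrane, Dlgap proteins tie Dlg to Shank, and Shank with Homer reaches down to metabotropic receptors, calcium stores and actin. Calcium entering the spine activates calcium/calmodulin-dependent kinases, which are among the most abundant proteins of the postsynaptic density. In the cerebellum these proteins serve the synapses of mossy fibres on granule neurons and of parallel and climbing fibres on Purkinje cells, and at the age studied granule neurons are still being born and wired.

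Arrays were close in overall level, with medians between 6.72 and 6.79 on the log2 scale. The Sufu gene had 8.08, 8.14 and 7.99 (log2) on the Sufu KO arrays, against 9.04, 8.82 and 9.02 on the wildtype arrays. Ptch1 RNA was higher in the tumours, by 1.02 log2 units (limma adjusted p = 3.69e-07), and since the deleted part is not given, this level does not check the label. Xist lay above the Y-linked genes on all 3 wildtype arrays and on 1 array of each mutant group, and below them on the 2 others, so sex differed between the groups.

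In the tumours 26 of the 32 genes were lower than in wildtype, 0 were higher and 6 did not pass the test (limma, Benjamini-Hochberg adjusted p below 0.05 over all genes tested). Of all 16323 genes tested, 24.7% were lower and 46.8% were called in either direction in this comparison, against 81.2% lower among the 32. The median log2 difference of the 32 was -0.67, and that of all genes -0.01. The largest fall of the 32 was that of the kinase gene Camk2a, at 3.81-fold. At least 1 log2 unit was lost by 5 of the 32, namely Camk2a, Shank1, Camk4, Lrrtm3 and Camk2b, and by 4.02% of all genes. In 27 of the 32 every tumour array lay below every wildtype array, which held for 30.2% of all genes.

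In Sufu KO cerebellum 15 of the 32 genes were lower than in wildtype, 0 were higher and 17 did not pass the test, and 1 of those, Lrrtm2, was higher at an unadjusted p below 0.05. The background here was 12.4% of genes lower and 25.4% called in either direction, against 46.9% lower among the 32. Their median log2 difference was -0.22, beside -0.01 for all genes. None of the 32 was lower by 1 log2 unit, which 0.221% of all genes were. The arrays did not overlap in 20 genes that lay lower, as in 19.6% of all genes, and in 2 that lay higher, Dlg3 and Lrrtm2, as in 21.3% of all genes.

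Set against Sufu KO cerebellum, the tumours had 24 of the 32 genes lower, 0 higher and 8 that did not pass. This compares with 17.5% of all genes lower and 29.7% called in either direction. The median log2 difference was -0.38, and the 2 genes lower by at least 1 log2 unit, Camk2a and Shank1, stood beside 1.13% of all genes. The arrays did not overlap in 26 genes that were lower, as in 23.6% of all genes. In 17 of the 32 genes the 3 groups lay in order without overlap, tumours lowest and wildtype highest, which was so for 11.1% of all genes. The comparisons with wildtype share the same 3 wildtype arrays.

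**Figure D1:**
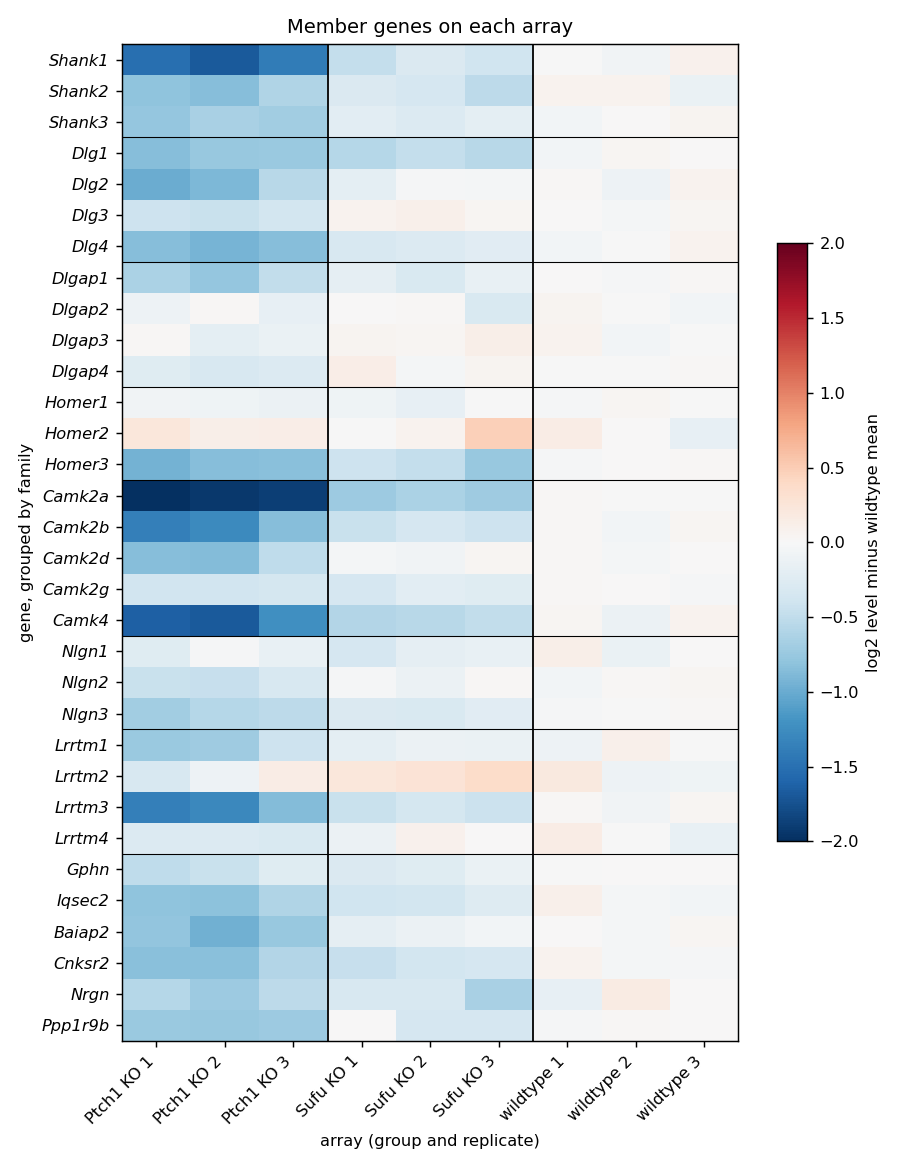
Log2 level of each of the 32 genes (rows, grouped by family) minus its wildtype mean, on each array (columns, Ptch1 KO tumours, Sufu KO and wildtype cerebellum, 3 arrays each). Blue is below and red above the wildtype mean; Camk2a, Shank1 and Camk4 are darkest in the tumours, and Homer1, Homer2 and Lrrtm2 show little blue.

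In bulk tissue, fewer cells of a type and less RNA per cell cannot be told apart. Marker lists of the cells that carry these synapses moved with the 32 genes, and so did the oligodendrocyte list and the Bergmann glia and astrocyte list. The mean log2 level of 10 mature granule neuron markers was 9.38 to 9.997 on the tumour arrays, 10.68 to 10.76 on the Sufu KO arrays and 11.29 to 11.46 on the wildtype arrays, with 9 of 10 lower in the tumours and 8 of 10 in Sufu KO. For 9 Purkinje cell markers it was 8.55 to 8.67, 9.41 to 9.51 and 9.94 to 10.01 in the same 3 groups, with 8 of 9 lower in each mutant and 1 of 9 higher in the tumours. The list of 10 GABAergic interneuron markers ran lower in 10 of 10 genes in the tumours and in 9 of 10 in Sufu KO. Granule neuron progenitor markers went the other way, at 10.16 to 10.61, 9.32 to 9.53 and 7.53 to 7.86, with 8 of 8 higher in the tumours and 7 of 8 in Sufu KO. Their part in the changes of the 32 genes was not tested.

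The defining markers Gabra6 and Cbln3 of granule neurons and Calb1 and Pcp2 of Purkinje cells differed from wildtype by -2.17, -2.71, -1.87 and -1.79 log2 units in the tumours, and Atoh1 and Mki67 of progenitors by 3.41 and 3.56 (largest adjusted p = 1.12e-06, for Cbln3). Oligodendrocyte markers, 9 of 9, and Bergmann glia and astrocyte markers, 8 of 10, were lower in each mutant. The oligodendrocyte list averaged 7.98 to 8.22 on the tumour arrays, 9.28 to 9.72 on the Sufu KO arrays and 10.03 to 10.31 on the wildtype arrays. For Bergmann glia and astrocytes it was 9.33 to 9.71, 9.77 to 9.83 and 10.42 to 10.50. Microglia markers were higher in 5 of 9 genes in the tumours and in 1 of 9 in Sufu KO. Endothelial and pericyte markers were lower in 8 of 10 and in 4 of 10. The 8 markers of forebrain excitatory neurons, which should be scarce in cerebellum, lay between 6.86 and 7.03 on all 9 arrays, and of the 7 tested 2 were lower in the tumours and 0 were called in Sufu KO. The 32 genes themselves averaged 8.56 to 8.71 on the tumour arrays, 9.03 to 9.06 on the Sufu KO arrays and 9.25 to 9.28 on the wildtype arrays.

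**Figure D2:**
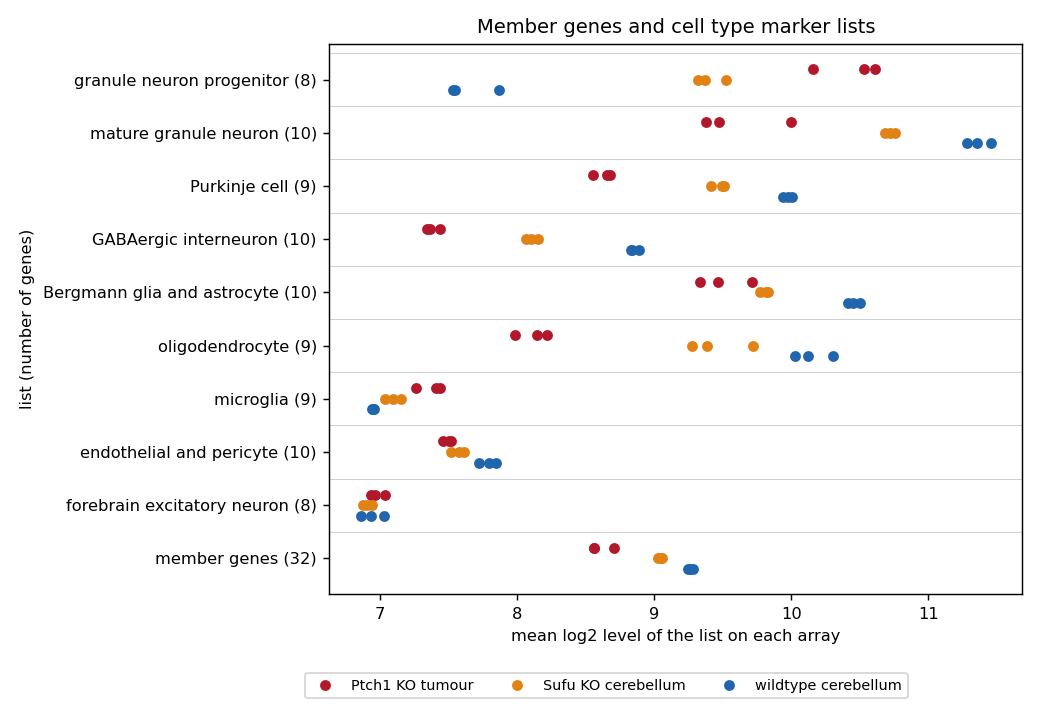
Mean log2 level (x axis) of each cell type marker list and of the 32 member genes on each array; every point is 1 array, and the number of genes is in brackets. The granule neuron, Purkinje cell, interneuron, oligodendrocyte and Bergmann glia and astrocyte lists and the member genes lie lowest in the tumours and highest in wildtype. The forebrain excitatory neuron list overlaps between the groups, and the progenitor list lies in the opposite order.

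All 3 Shank genes, which encode the scaffold proteins that join the upper and lower layers of the density, fell in both mutants. Shank1 had 7.36, 7.17 and 7.46 (log2) on the tumour arrays, 8.39, 8.57 and 8.46 on the Sufu KO arrays, and 8.85, 8.79 and 8.95 on the wildtype arrays. The 3 groups did not overlap, and the tumours stood well below the other two. Its log2 difference from wildtype was -1.53 ± 0.08 (SE) in the tumours, a 2.89-fold fall (adjusted p = 4.74e-08), and -0.39 ± 0.08 in Sufu KO (adjusted p = 0.00545).

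Shank2 had 8.35, 8.29 and 8.55 (log2) on the tumour arrays, 8.85, 8.81 and 8.63 on the Sufu KO arrays, and 9.21, 9.21 and 9.02 on the wildtype arrays. It fell by 0.75 ± 0.09 log2 units in the tumours (adjusted p = 2.00e-05) and by 0.38 ± 0.09 in Sufu KO (adjusted p = 0.00804). Its other probe sets fell further, by 1.60 and 1.07 in the tumours and by 0.67 and 0.61 in Sufu KO, each with an adjusted p below 0.05 over all single-gene probe sets. Shank3 had 7.77, 7.89 and 7.85 on the tumour arrays, 8.34, 8.26 and 8.35 on the Sufu KO arrays, and 8.49, 8.54 and 8.60 on the wildtype arrays. Its groups kept apart as well, with differences of -0.70 ± 0.07 in the tumours (adjusted p = 2.25e-06) and -0.23 ± 0.07 in Sufu KO (adjusted p = 0.0233). The Sufu KO call for Shank3 was lost with sex as a covariate and without wildtype replicate 2, wildtype replicate 3 or Sufu KO replicate 2 (highest adjusted p = 0.111).

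The Dlg genes encode the membrane-associated guanylate kinases that hold receptors in place. All 4 fell in the tumours, 2 fell in Sufu KO, and the 2 others did not pass there. Dlg4, which encodes PSD-95, had 9.40, 9.33 and 9.40 (log2) on the tumour arrays, 9.94, 9.98 and 10.03 on the Sufu KO arrays, and 10.20, 10.25 and 10.32 on the wildtype arrays. It fell by 0.88 ± 0.06 log2 units in the tumours (adjusted p = 3.34e-07) and by 0.27 ± 0.06 in Sufu KO (adjusted p = 0.00803).

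Dlg1, which encodes SAP97, a trafficking partner of AMPA receptors, was lower in both mutants. Its levels were 8.95, 9.05 and 9.06 (log2) on the tumour arrays, 9.23, 9.33 and 9.24 on the Sufu KO arrays, and 9.75, 9.84 and 9.81 on the wildtype arrays. The log2 difference from wildtype was -0.78 ± 0.06 in the tumours (adjusted p = 8.83e-07) and -0.53 ± 0.06 in Sufu KO (adjusted p = 1.08e-04). Between the mutants it was -0.25 ± 0.06 (adjusted p = 0.0112), a call lost without Sufu KO replicate 2 or tumour replicate 1 (highest adjusted p = 0.0595).

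Dlg2, which encodes PSD-93, had 9.26, 9.36 and 9.70 (log2) on the tumour arrays, 10.06, 10.22 and 10.21 on the Sufu KO arrays, and 10.28, 10.15 and 10.33 on the wildtype arrays. The tumours lay apart, while Sufu KO and wildtype overlapped. It fell by 0.82 ± 0.10 log2 units in the tumours (adjusted p = 3.38e-05), and the Sufu KO difference of -0.09 had a 95% interval of -0.32 to 0.14 (adjusted p = 0.611). Dlg3, an X-linked gene that encodes SAP102, a family member prominent in young neurons, had 8.25, 8.23 and 8.30 on the tumour arrays, 8.74, 8.77 and 8.72 on the Sufu KO arrays, and 8.68, 8.63 and 8.70 on the wildtype arrays. It fell by 0.41 ± 0.06 in the tumours (adjusted p = 1.06e-04), and all 3 Sufu KO arrays lay above all 3 wildtype arrays by a mean of 0.07, with a 95% interval of -0.06 to 0.20 (adjusted p = 0.455).

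The Dlgap genes encode the linkers between Dlg and Shank. In the tumours 2 of 4 fell, and in Sufu KO 0 of 4 passed the test. Dlgap1 had 9.02, 8.88 and 9.17 (log2) on the tumour arrays, 9.47, 9.36 and 9.50 on the Sufu KO arrays, and 9.66, 9.63 and 9.67 on the wildtype arrays. The 3 groups did not overlap. It fell by 0.63 ± 0.08 in the tumours (adjusted p = 2.76e-05), and its Sufu KO difference of -0.21 ± 0.08 did not pass (adjusted p = 0.0696). The second probe set of Dlgap1 fell by 1.41 in the tumours (adjusted p = 2.14e-07) and by 0.47 in Sufu KO (adjusted p = 0.00289).

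Dlgap4 fell by 0.27 ± 0.07 log2 units in the tumours (adjusted p = 0.0041), with 8.83, 8.75 and 8.80 on the tumour arrays, 9.20, 9.02 and 9.12 on the Sufu KO arrays, and 9.06, 9.05 and 9.09 on the wildtype arrays. Dlgap3 had tumour and wildtype ranges of 8.35 to 8.57 and 8.48 to 8.62, and its difference of -0.10 had a 95% interval of -0.26 to 0.06 (adjusted p = 0.325). Dlgap2 lay between 5.91 and 6.28 on the 9 arrays, below each array's median, and with no detection calls used here, so dim a level cannot be told from background.

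Homer genes encode adaptors whose N-terminal domain binds Shank, metabotropic glutamate receptors and inositol trisphosphate receptors. They divided: Homer3 fell in both mutants, while Homer1 and Homer2 did not pass the test in any of the 3 comparisons. The sequences upstream of Homer1 and Homer3 are shown because these paralogues moved unequally, each as the 250 bases before the first listed start in the RefSeq promoter table (build GRCm38.p6), 5′ to 3′ on the gene's strand. Capitals mark TGACG, the core of the site bound by CREB, a factor that calcium/calmodulin-dependent kinase IV phosphorylates, and GGGCGG, the GC box bound by Sp1, on either strand. Homer1 (chr13:93303507-93303756, plus strand) held 3 TGACG and 0 GGGCGG, and Homer3 (chr8:70282749-70282998, plus strand) held 0 TGACG and 4 GGGCGG.
Homer1: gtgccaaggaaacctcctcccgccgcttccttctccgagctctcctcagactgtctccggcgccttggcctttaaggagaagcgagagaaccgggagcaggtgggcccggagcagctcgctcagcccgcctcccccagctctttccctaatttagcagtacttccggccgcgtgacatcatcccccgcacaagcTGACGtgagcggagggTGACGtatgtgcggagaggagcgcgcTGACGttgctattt
Homer3: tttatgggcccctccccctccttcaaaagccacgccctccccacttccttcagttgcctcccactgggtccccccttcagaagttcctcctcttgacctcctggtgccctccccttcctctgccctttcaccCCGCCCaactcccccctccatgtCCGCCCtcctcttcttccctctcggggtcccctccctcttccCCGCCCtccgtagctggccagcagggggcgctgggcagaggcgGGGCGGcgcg

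Homer3, the paralogue most prominent in Purkinje cells, had 8.42, 8.52 and 8.53 (log2) on the tumour arrays, 8.95, 8.89 and 8.61 on the Sufu KO arrays, and 9.34, 9.38 and 9.38 on the wildtype arrays. The 3 groups did not overlap, though Sufu KO replicate 3 lay near the tumours. It fell by 0.88 ± 0.09 in the tumours (adjusted p = 3.53e-06) and by 0.55 ± 0.09 in Sufu KO (adjusted p = 6.34e-04). The difference between the mutants, -0.33 ± 0.09 (adjusted p = 0.0118), lost its call without Sufu KO replicate 2 or tumour replicate 1 (highest adjusted p = 0.0567).

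Homer1, whose short isoform is an activity-induced competitor of the long ones, had 8.22, 8.19 and 8.16 (log2) on the tumour arrays, 8.20, 8.12 and 8.27 on the Sufu KO arrays, and 8.26, 8.32 and 8.28 on the wildtype arrays. The difference from wildtype was -0.09 in each mutant, with 95% intervals of -0.23 to 0.04 in the tumours and -0.23 to 0.05 in Sufu KO. Every tumour array lay below every wildtype array. With array weights Homer1 was called lower in Sufu KO (-0.14, limma adjusted p = 0.0423). Homer2 had 8.38, 8.27 and 8.29 on the tumour arrays, 8.15, 8.23 and 8.64 on the Sufu KO arrays, and 8.31, 8.17 and 7.995 on the wildtype arrays. All 3 groups overlapped, and the differences were 0.16 and 0.18. The second probe set of Homer2 was higher by 0.58 in the tumours (adjusted p = 6.63e-05) and by 0.67 in Sufu KO (adjusted p = 1.17e-04), so the probe sets of this gene disagree.

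**Figure D3:**
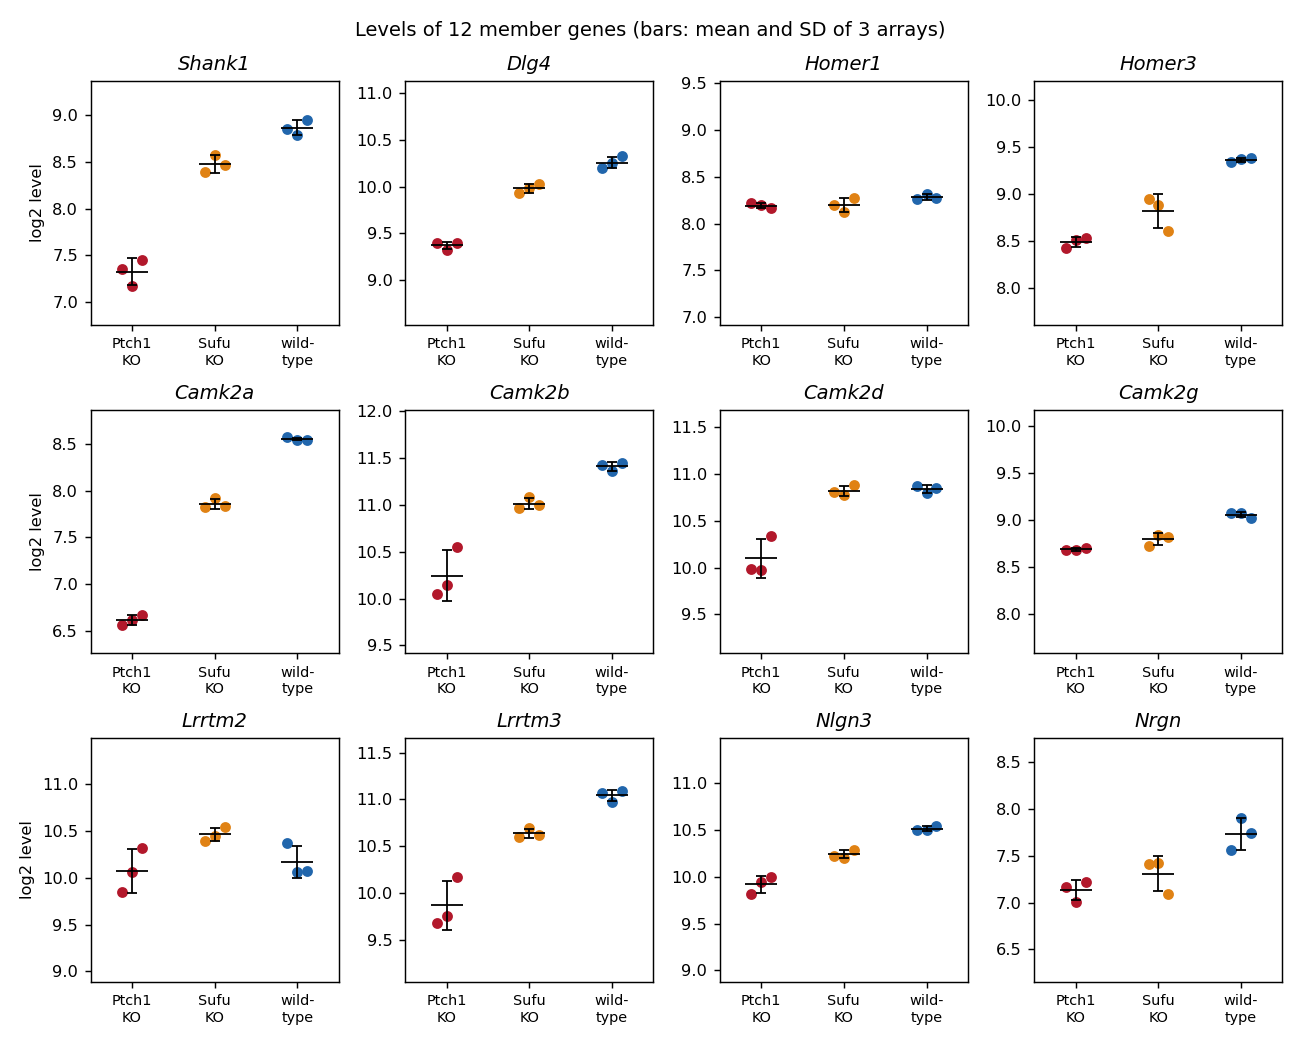
Log2 level (y axis, 2.6 log2 units tall in every panel) of 12 member genes on each array (points), by group from left to right Ptch1 KO tumours, Sufu KO and wildtype cerebellum; bars are the mean and SD of 3 arrays. Camk2a and Shank1 step down furthest in the tumours, Camk2d is low in the tumours alone, and Homer1 and Lrrtm2 lie nearly level between tumours and wildtype.

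Among the kinases, all 5 genes fell in the tumours and 4 of 5 in Sufu KO. Camk2a, which encodes the alpha subunit of calcium/calmodulin-dependent kinase II, had 6.56, 6.62 and 6.67 (log2) on the tumour arrays, 7.82, 7.92 and 7.83 on the Sufu KO arrays, and 8.57, 8.54 and 8.54 on the wildtype arrays. The gaps between the groups were many times the spread within any of them. The fall was 1.93 ± 0.06 log2 units in the tumours (adjusted p = 2.96e-09), and in Sufu KO the difference was -0.69 ± 0.06 (adjusted p = 1.48e-05). On the tumour arrays its level lay below the array medians, so the tumour values were read at a dim level.

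Camk2b encodes the beta subunit, which binds actin and is the main form in the cerebellum. Its levels were 10.04, 10.14 and 10.55 (log2) on the tumour arrays, 10.96, 11.08 and 10.99 on the Sufu KO arrays, and 11.43, 11.36 and 11.45 on the wildtype arrays. The groups did not overlap, and tumour replicate 3 lay above the other 2 tumours. Its log2 difference from wildtype was -1.16 ± 0.11 in the tumours, a 2.24-fold fall (adjusted p = 2.50e-06), and its level was 1.32-fold lower in Sufu KO (adjusted p = 0.0185). The Sufu KO call was lost without wildtype replicate 1, wildtype replicate 3 or Sufu KO replicate 1 (highest adjusted p = 0.0602).

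Camk2d, the delta subunit gene, had 9.99, 9.97 and 10.34 (log2) on the tumour arrays, 10.80, 10.77 and 10.88 on the Sufu KO arrays, and 10.87, 10.79 and 10.85 on the wildtype arrays. The tumours were low, and Sufu KO and wildtype overlapped. It fell by 0.74 ± 0.09 in the tumours (adjusted p = 2.78e-05), and the Sufu KO difference of -0.02 had a 95% interval of -0.22 to 0.18 (adjusted p = 0.908). Camk2g, the gamma subunit gene, had 8.68, 8.68 and 8.70 on the tumour arrays, 8.73, 8.84 and 8.82 on the Sufu KO arrays, and 9.07, 9.07 and 9.03 on the wildtype arrays. In contrast to Camk2d it lay low in both mutants, with differences of -0.37 ± 0.06 in the tumours (adjusted p = 2.74e-04) and -0.26 ± 0.06 in Sufu KO (adjusted p = 0.00803). Between the mutants Camk2g differed by -0.11, with a 95% interval of -0.24 to 0.02 (adjusted p = 0.223).

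The upstream sequences of Camk2b and Camk2d are shown in the same form and with the same marks. Camk2b was called lower in Sufu KO and Camk2d was not, and an unequal change in Sufu KO alone was not tested. Camk2b (chr11:6065749-6065998, minus strand) and Camk2d (chr3:126596701-126596950, plus strand) each held 3 GGGCGG and 0 TGACG, and in Camk2b a pair of the GC boxes overlapped by 1 base. The counts of both marks were thus the same in these genes.
Camk2b: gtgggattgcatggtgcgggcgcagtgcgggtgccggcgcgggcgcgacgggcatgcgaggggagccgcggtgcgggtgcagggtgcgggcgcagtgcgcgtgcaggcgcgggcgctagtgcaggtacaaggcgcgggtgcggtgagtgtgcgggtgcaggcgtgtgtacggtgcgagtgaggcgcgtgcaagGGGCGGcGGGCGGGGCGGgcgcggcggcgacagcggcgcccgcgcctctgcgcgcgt
Camk2d: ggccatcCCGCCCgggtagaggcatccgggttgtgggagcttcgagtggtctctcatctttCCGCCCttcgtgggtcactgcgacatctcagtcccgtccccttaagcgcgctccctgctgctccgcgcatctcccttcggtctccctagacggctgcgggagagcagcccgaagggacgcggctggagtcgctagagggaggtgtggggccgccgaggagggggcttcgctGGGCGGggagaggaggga

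Of the 32 genes 24 were found in the promoter table, with 39 promoters. TGACG occurred in 4 of these (10.3%), against 17.8% of all 32851 promoters of the same length, and GGGCGG in 17 (43.6%), against 32.7%. The E-box CANNTG, the motif of basic helix-loop-helix factors, occurred in 25 (64.1%), against 66.2% of all. The Gli motif GACCACCCA occurred in 0 of the 39 and in 0.225% of all promoters. Both strands were searched, and a match is a description of letters, not a binding site.

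Camk4, the kinase that carries calcium signals to CREB in the nucleus and is abundant in granule neurons, had 9.18, 9.13 and 9.58 (log2) on the tumour arrays, 10.23, 10.25 and 10.31 on the Sufu KO arrays, and 10.85, 10.70 and 10.88 on the wildtype arrays. Its groups were clearly apart. It fell by 1.51 ± 0.11 log2 units, or 2.85-fold, in the tumours (adjusted p = 2.54e-07), and by 0.55 ± 0.11 in Sufu KO (adjusted p = 0.00264).

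Neuroligins bind presynaptic neurexins across the cleft, and their tails bind Dlg proteins or gephyrin. In the tumours 2 of 3 fell, and in Sufu KO 1 of 3 did. Nlgn3, an X-linked gene whose product is found at excitatory and inhibitory synapses, had 9.82, 9.95 and 9.996 (log2) on the tumour arrays, 10.22, 10.20 and 10.29 on the Sufu KO arrays, and 10.50, 10.50 and 10.54 on the wildtype arrays. It fell by 0.59 ± 0.07 in the tumours (adjusted p = 1.16e-05) and by 0.27 ± 0.07 in Sufu KO (adjusted p = 0.00954), and with sex as a covariate the Sufu KO call was lost (adjusted p = 0.053).

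Nlgn2, the neuroligin of inhibitory synapses, had 9.23, 9.21 and 9.36 (log2) on the tumour arrays, 9.66, 9.55 and 9.70 on the Sufu KO arrays, and 9.63, 9.69 and 9.71 on the wildtype arrays. It fell by 0.41 ± 0.07 in the tumours (adjusted p = 3.43e-04), while the Sufu KO arrays overlapped wildtype, with a difference of -0.04. Nlgn1, the neuroligin of excitatory synapses, had 8.35, 8.57 and 8.44 on the tumour arrays, 8.25, 8.42 and 8.45 on the Sufu KO arrays, and 8.71, 8.46 and 8.60 on the wildtype arrays. Its differences of -0.14 in the tumours (95% interval -0.33 to 0.05) and -0.22 in Sufu KO (adjusted p = 0.0886) did not pass.

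Lrrtm genes encode leucine-rich repeat proteins of the postsynaptic membrane that bind neurexins or heparan sulphate proteoglycans. In the tumours 3 of 4 fell, in Sufu KO 1 of 4 did, and the arrays of Lrrtm2 lay in another order. Lrrtm3 had 9.68, 9.76 and 10.17 (log2) on the tumour arrays, 10.60, 10.69 and 10.62 on the Sufu KO arrays, and 11.07, 10.97 and 11.09 on the wildtype arrays. It fell 2.26-fold in the tumours (log2 difference -1.18 ± 0.11, adjusted p = 2.10e-06) and 1.33-fold in Sufu KO (adjusted p = 0.0155), the second call being lost without wildtype replicate 3 (adjusted p = 0.0548).

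Lrrtm2 had 9.85, 10.06 and 10.32 (log2) on the tumour arrays, 10.39, 10.45 and 10.54 on the Sufu KO arrays, and 10.37, 10.06 and 10.08 on the wildtype arrays. Every Sufu KO array lay above every wildtype and every tumour array. The Sufu KO difference of 0.29 ± 0.12 did not pass (adjusted p = 0.0872). Tumours minus Sufu KO, the difference was -0.39 ± 0.12 (adjusted p = 0.0243), a call lost without Sufu KO replicate 2 or 3 or tumour replicate 1 or 2 (highest adjusted p = 0.113). Against wildtype the tumours differed by -0.09, with a 95% interval of -0.35 to 0.16.

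Lrrtm1 lay below the array medians on all 9 arrays, at 5.83, 5.85 and 6.15 (log2) in the tumours, 6.36, 6.45 and 6.43 in Sufu KO, and 6.46, 6.67 and 6.56 in wildtype, so its difference of -0.62 in the tumours (adjusted p = 1.05e-04) was read at a dim level. Lrrtm4 had 7.07, 7.08 and 7.05 on the tumour arrays, 7.22, 7.44 and 7.35 on the Sufu KO arrays, and 7.503, 7.34 and 7.20 on the wildtype arrays. It fell by 0.28 ± 0.08 in the tumours (adjusted p = 0.0146), a call lost with sex as a covariate and without wildtype replicate 1 (highest adjusted p = 0.0745). Between the mutants its difference of -0.27 (adjusted p = 0.0278) was lost when any array of either mutant group was left out except Sufu KO replicate 1 (highest adjusted p = 0.124).

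Of the 6 further genes, all 6 fell in the tumours and 3 in Sufu KO. Cnksr2, an X-linked scaffold gene of the Ras pathway at the postsynaptic density, had 10.29, 10.29 and 10.54 (log2) on the tumour arrays, 10.66, 10.76 and 10.79 on the Sufu KO arrays, and 11.20, 11.08 and 11.09 on the wildtype arrays. It fell by 0.75 ± 0.08 in the tumours (adjusted p = 7.58e-06) and by 0.39 ± 0.08 in Sufu KO (adjusted p = 0.00391). Iqsec2, an X-linked gene for an exchange factor of Arf GTPases that binds PSD-95, had 7.57, 7.55 and 7.77 on the tumour arrays, 7.98, 8.01 and 8.11 on the Sufu KO arrays, and 8.48, 8.33 and 8.31 on the wildtype arrays, with differences of -0.74 ± 0.08 in the tumours (adjusted p = 7.93e-06) and -0.34 ± 0.08 in Sufu KO (adjusted p = 0.00803).

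Nrgn encodes neurogranin, which holds calmodulin at low calcium. It had 7.17, 7.01 and 7.21 (log2) on the tumour arrays, 7.41, 7.42 and 7.09 on the Sufu KO arrays, and 7.56, 7.90 and 7.74 on the wildtype arrays. Sufu KO and the tumours overlapped and both lay below wildtype. Its differences were -0.60 ± 0.11 in the tumours (adjusted p = 5.17e-04) and -0.43 ± 0.11 in Sufu KO (adjusted p = 0.012), and the Sufu KO call was lost without wildtype replicate 2 (adjusted p = 0.0595).

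Baiap2, which encodes the membrane-bending actin regulator IRSp53, had 8.50, 8.32 and 8.52 (log2) on the tumour arrays, 9.10, 9.17 and 9.23 on the Sufu KO arrays, and 9.28, 9.24 and 9.32 on the wildtype arrays. It fell by 0.84 ± 0.07 in the tumours (adjusted p = 1.26e-06), and the Sufu KO difference of -0.12 ± 0.07 did not pass (adjusted p = 0.292). Ppp1r9b, which encodes spinophilin, the anchor of protein phosphatase 1 in spines, had 9.39, 9.39 and 9.42 on the tumour arrays, 10.15, 9.81 and 9.80 on the Sufu KO arrays, and 10.12, 10.16 and 10.15 on the wildtype arrays. The 3 tumours lay together and low (-0.74 ± 0.09, adjusted p = 1.76e-05), and in Sufu KO replicate 1 stood with wildtype and the other 2 below it. The Sufu KO difference for Ppp1r9b of -0.22 did not pass with all arrays (adjusted p = 0.0838) and passed without replicate 1 (-0.34, adjusted p = 0.00383).

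Gphn encodes gephyrin, the scaffold of inhibitory synapses. Its levels were 9.86, 9.92 and 10.12 (log2) on the tumour arrays, 10.07, 10.12 and 10.23 on the Sufu KO arrays, and 10.35, 10.37 and 10.36 on the wildtype arrays. It fell by 0.39 ± 0.08 in the tumours (adjusted p = 0.00113). Its Sufu KO difference of -0.22 ± 0.08 did not pass (adjusted p = 0.058), although all 3 arrays lay below wildtype, and 7 of 18 alternative settings called it (adjusted p from 0.00577 to 0.161 over all 18).

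**Figure D4:**
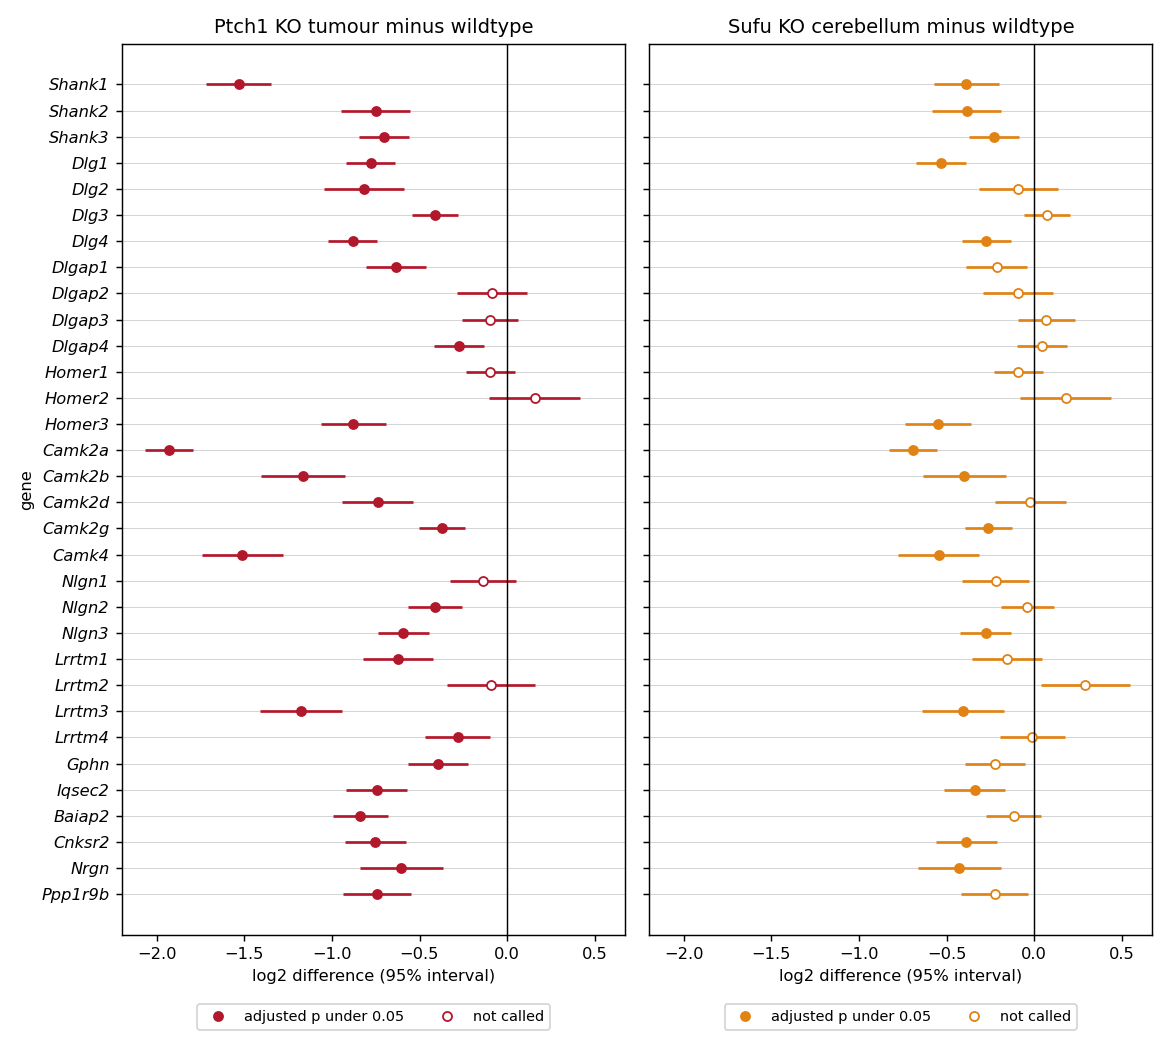
Log2 difference from wildtype (x axis) of each of the 32 genes in Ptch1 KO tumours (left panel) and Sufu KO cerebellum (right panel), with 95% confidence intervals from the limma fit; filled points have an adjusted p below 0.05. In the tumours 26 points are filled and in Sufu KO 15, all left of 0.

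Sex was unequal between the groups, and 4 of the 32 genes, Dlg3, Nlgn3, Iqsec2 and Cnksr2, are X-linked. The wildtype arrays were alike in sex by Xist, so a sex covariate was estimated within the mutant groups alone. With sex as a covariate, the count of lower genes among the 32 was 25 in the tumours and 13 in Sufu KO, against 26 and 15 without it. Shank3 and Nlgn3 were the genes lost in Sufu KO and Lrrtm4 the gene lost in the tumours. Only Nlgn3 of these is X-linked.

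Tumour replicate 3 was the highest of the 3 tumours in 23 of the 32 genes, as in 36.0% of all genes tested, and the lowest in 3. It lay at least 0.3 log2 units above the mean of the other 2 tumours in 7 genes, which were Camk2b (0.46), Lrrtm3 (0.45), Camk4 (0.42), Dlg2 (0.38), Lrrtm2 (0.36), Camk2d (0.36) and Lrrtm1 (0.31). In 14 of the 32 it lay within 0.1 of them, among them Camk2a (0.08), Dlg4 (0.03), Ppp1r9b (0.03) and Camk2g (0.02). On the same array mature granule neuron markers were higher by a mean of 0.57, with 10 of 10 highest there, progenitor markers differed by a mean of -0.41, Bergmann glia and astrocyte markers were higher by a mean of 0.31, with 9 of 10 highest there, and Purkinje cell markers differed by 0.05. Without tumour replicate 3, again 26 of the 32 genes were lower in the tumours than in wildtype.

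Within families, unequal change was tested on the within-array log2 difference of 33 paralogue pairs, which removes whatever shifts both genes of a pair alike. The exact permutation test used the between-group F statistic and ran over all 1680 assignments of the 9 arrays to 3 groups of 3. Its p-values were adjusted over the 33 pairs. Each pair has 1 p over the 3 groups together, so the change in either mutant alone was not tested. The test called 22 pairs, of which 11 had the smallest p the design allows, 0.00357. By family these were 6 of 6 calcium/calmodulin-dependent kinase II pairs, 3 of 3 neuroligin pairs, 4 of 6 Dlg pairs, 4 of 6 Lrrtm pairs, 2 of 3 Homer pairs, 2 of 6 Dlgap pairs and 1 of 3 Shank pairs. Lrrtm1 and Dlgap2 lay below the array medians on all 9 arrays and Camk2a on the tumour arrays, so their pairs were read partly at a dim level. How often pairs of genes from different families change unequally was not tested. Each gene was read from its brightest probe set, and with the mean of probe sets 27 pairs were called. With a replicate block 0 pairs were called.

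Relative to Camk2g, Camk2a changed by -1.56 log2 units in the tumours and by -0.43 in Sufu KO (exact permutation, adjusted p = 0.0107). The Camk2d minus Camk2g difference moved by -0.37 in the tumours and by 0.24 in Sufu KO (exact permutation over the 3 groups, adjusted p = 0.0107). The opposite signs were not tested. Homer1 gained on Homer3 by 0.78 in the tumours and by 0.46 in Sufu KO (exact permutation, adjusted p = 0.0168). Lrrtm2 gained on Lrrtm3 by 1.08 and 0.70 (exact permutation, adjusted p = 0.0107), and Homer2 gained on Homer3 by 1.03 and 0.73 (exact permutation, adjusted p = 0.0248).

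Among the Dlg genes, Dlg1 changed relative to Dlg3 by -0.37 in the tumours and by -0.60 in Sufu KO (exact permutation, adjusted p = 0.0107). Dlg2 and Dlg4 changed by 0.07 and 0.18 relative to each other and were not called (exact permutation, adjusted p = 0.357). Shank1 changed relative to Shank3 by -0.83 and -0.16 (exact permutation, adjusted p = 0.0168). Relative to Shank2 it changed by -0.78 and -0.00, a pair just outside the threshold (exact permutation, adjusted p = 0.0512). That pair was read from the brightest Shank2 probe set. The other probe sets of Shank2 differed from wildtype by -1.60 and -1.07 in the tumours and by -0.67 and -0.61 in Sufu KO. For Shank1 the differences were -1.53 and -0.39, and the pair was not tested with either of those probe sets alone. Nlgn1 gained on Nlgn3 by 0.45 in the tumours and by 0.06 in Sufu KO (exact permutation, adjusted p = 0.0337).

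**Figure D5:**
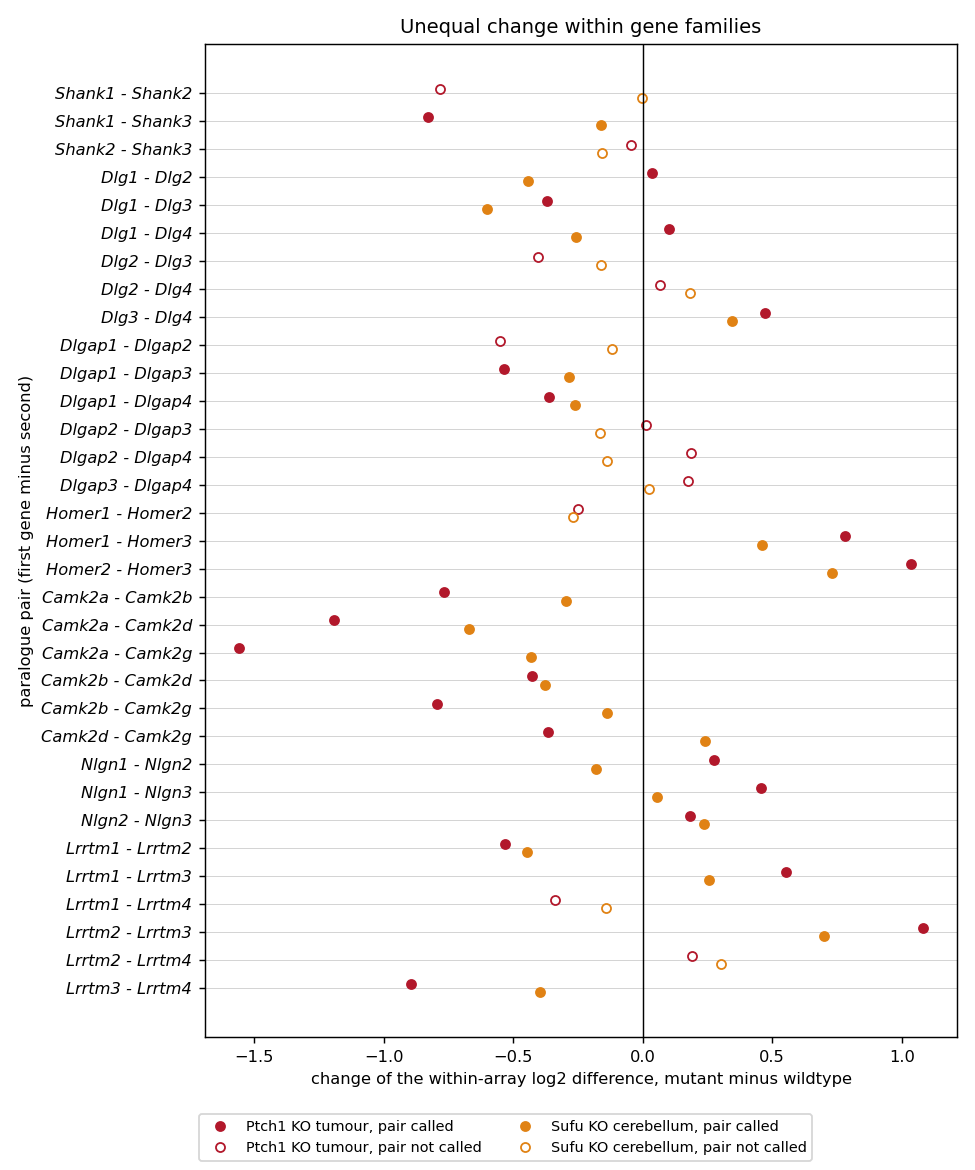
Change, mutant minus wildtype, of the within-array log2 difference (first gene minus second; x axis) for the 33 paralogue pairs, in Ptch1 KO tumours and Sufu KO cerebellum; filled points belong to pairs called by the permutation test over the 3 groups. In the tumours the pairs of Camk2a with Camk2g and with Camk2d lie furthest left (-1.56 and -1.19), and those of Lrrtm2 with Lrrtm3 and of Homer2 with Homer3 furthest right (1.08 and 1.03).

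A further 83 tested genes of the same synaptic side, in lists of scaffolds and regulators, calcium/calmodulin signalling and adhesion, were counted in the same way. In the tumours 58 were lower and 10 higher than in wildtype, with a median log2 difference of -0.34. Lower were thus 69.9% of the 83, against 24.7% of all genes, and higher were 10 of 83, against 22.1% of all genes. In Sufu KO 36 were lower and 12 higher, with a median of -0.17. These were 43.4% and 14.5% of the 83, against 12.4% of all genes lower and 2122 of 16323 genes higher. Between the mutants 47 were lower and 9 higher in the tumours. These were 56.6% and 10.8% of the 83, against 17.5% of all genes lower and 12.2% higher. By list, scaffolds and regulators had 23 lower and 3 higher of 35 in the tumours and 13 and 5 in Sufu KO, calcium/calmodulin genes 14 and 3 of 21 and then 11 and 4, and adhesion genes 21 and 4 of 27 and then 12 and 3.

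Among the scaffolds and regulators, Frmpd4, whose product binds PSD-95 and Homer, fell by 1.62 log2 units in the tumours (adjusted p = 4.09e-08) and by 0.76 in Sufu KO (adjusted p = 7.82e-05). Nos1, the neuronal nitric oxide synthase that docks on PSD-95, fell by 1.53 in the tumours and by 0.31 in Sufu KO (limma adjusted p = 0.0298). Lin7a, a small adaptor, differed by -1.45 in the tumours and -0.64 in Sufu KO. Dnm3, a dynamin that binds Homer, fell by 0.60 in Sufu KO and by 1.38 in the tumours. Grip1, the adaptor of AMPA receptors, rose by 0.72 in the tumours (adjusted p = 1.13e-05) and by 0.33 in Sufu KO, Magi3 rose by 0.77 and Sipa1l3 by 0.32 in the tumours, and Lzts1 rose by 0.50 in Sufu KO. Tanc2, a postsynaptic scaffold gene, had 8.78, 8.77 and 9.08 on the tumour arrays, 9.71, 9.81 and 9.82 on the Sufu KO arrays, and 9.48, 9.40 and 9.51 on the wildtype arrays, so it fell in the tumours (-0.59, adjusted p = 1.13e-04) and rose in Sufu KO (0.32, adjusted p = 0.0177). The rise lost its call with sex as a covariate and without wildtype replicate 2 or Sufu KO replicate 2 (highest adjusted p = 0.0729), and that of Sipa1l3 without tumour replicate 1 (adjusted p = 0.0516).

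Among calcium/calmodulin genes, Camkk2, the kinase that activates Camk4, fell by 1.51 log2 units in the tumours (adjusted p = 2.94e-07) and by 0.48 in Sufu KO. Itpka, a kinase of inositol trisphosphate in spines, fell by 1.48 in the tumours and 0.60 in Sufu KO. Camk1g and Camk2n1, an inhibitor of kinase II, fell by 0.78 and 0.59 in Sufu KO and by 1.07 and 0.91 in the tumours. Pcp4, also a Purkinje cell marker here, fell by 1.19 in the tumours and by 0.37 in Sufu KO. Dapk1, a calmodulin-regulated kinase of cell death, rose by 1.34 in the tumours (adjusted p = 1.56e-07) and by 0.57 in Sufu KO. Camk1 rose by 0.25 and 0.26, Camkv by 0.23 and 0.25 (limma adjusted p = 0.0366 and 0.045), and Ppp1ca by 0.25 in Sufu KO. Of 18 alternatives, the tumour call of Camkv was lost in 6 (highest adjusted p = 0.148). How its Sufu KO call fared in them is not given here. The call of Camk1 was lost in 3 in the tumours and in 5 in Sufu KO (highest adjusted p = 0.0867 and 0.117). Sex as a covariate was among them in each case.

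Among adhesion genes, the calsyntenins Clstn3 and Clstn2 fell by 1.61 and 1.31 log2 units in the tumours and by 0.61 and 0.70 in Sufu KO. Slitrk4 fell by 1.29 in the tumours and by 0.58 in Sufu KO. Lrrc4c, a netrin-G ligand gene, differed by -0.64 in Sufu KO and by -0.98 in the tumours. Slitrk5 rose by 0.92 in the tumours (adjusted p = 4.17e-07) and by 0.55 in Sufu KO, and Adgrl2, a latrophilin, by 0.72 and 0.39. Lrfn4 rose by 0.33 in the tumours and Lrfn1 by 0.23 in Sufu KO (adjusted p = 0.0397), a call that was lost in 12 of 18 alternatives (highest adjusted p = 0.143).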

How the data were processed

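RNA of 9 mouse samples, 3 per group, was measured on 1 array each. The authors deposited log2 expression values for 35556 probe sets. How these values were background-corrected, normalized and summarised is not given in the sources used here, and detection calls were not used. Probe sets with 1 gene symbol (21789) were named from the array annotation, giving 19938 genes; probe sets with several symbols (1621) or not listed (12146) were left out. The probe set with the highest mean stood for a gene, and genes that exceeded the 25th percentile of 3 or more arrays (16323) were tested.

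A model with 1 mean per group was fitted with limma 3.58.1 (lmFit, eBayes) in R 4.3.3 to all 9 arrays, with 2-sided p-values adjusted by Benjamini-Hochberg over the genes tested in each comparison and a threshold of 0.05. SE is the moderated standard error, intervals are 95%, and a fold is the log2 difference turned linear. Second probe sets were tested over all single-gene probe sets. Paralogue pairs were tested by exact permutation of arrays in Python 3.11.15. The fits were tested on simulated data. Alternatives were a replicate block, quantile normalization, other filters, the mean of probe sets, a trended robust prior, array weights, 2-group fits, a sex covariate and leaving out each array.

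The member genes, lists, tests and naming rule were chosen with earlier results of these data known. All members were named. Of the other lists the 3 highest and 3 lowest called differences per list and comparison with wildtype were named. Promoters came from a RefSeq table of GRCm38.p6. Same-numbered replicates of different groups correlated between -0.31 and 0.35 in their deviations from the group means. Differently numbered ones ran between -0.35 and 0.40. So few correlations cannot exclude that the numbers pair samples. The main fit used no replicate block.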

Additional observations from a re-analysis of the deposited data

Results flagged for a closer look

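Tanc2, which encodes a postsynaptic scaffold protein, was singled out because it moved in opposite directions in the mutants. The tumours had 8.78, 8.77 and 9.08 (log2), the Sufu KO arrays 9.71, 9.81 and 9.82, and the wildtype arrays 9.48, 9.40 and 9.51. The tested difference, tumours minus Sufu KO, was -0.91 (limma adjusted p = 2.20e-05). The rise in Sufu KO lost its call with sex as a covariate and without wildtype replicate 2 or Sufu KO replicate 2 (highest adjusted p = 0.0729). Sufu itself, the gene targeted in one mutant, was singled out for the same reason, being higher in the tumours and lower in Sufu KO than in wildtype, with a difference of 1.81 between the mutants (adjusted p = 3.42e-07). None of the 32 member genes was called in opposite directions.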

How the results depend on the processing

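No called difference of the 32 genes changed sign under 18 alternatives. Called in every alternative that tested them were 25 of 26 genes lower in the tumours, 10 of 15 in Sufu KO and 20 of 24 between the mutants; Lrrtm1, among the 25 and the 20, was not tested with the filter at the array median. The count of genes higher in Sufu KO, 0 in the report, was 1 with the mean of probe sets (Homer2), with array weights and in the 2-group fit (Lrrtm2), and 0 to 1 when 1 array was left out (Lrrtm2 without wildtype replicate 1 or tumour replicate 3). With the mean of probe sets it was also 1 in the tumours (Homer2). Other postsynaptic genes higher in Sufu KO numbered 6 to 13 with 1 array left out, against 12, and 6 without wildtype replicate 2. Those lower in Sufu KO numbered 24 to 37, against 36, and 26 with sex as a covariate. In the tumours 52 to 60 of them were lower than in wildtype, against 58, and between the mutants 33 to 47, against 47. With 1 array left out, genes lower numbered 12 to 17 in Sufu KO and 25 to 26 in the tumours, and paralogue pairs called 16 to 22. Array weights gave 19 member genes lower in Sufu KO and 27 between the mutants. Of member differences not called, 7 in Sufu KO, 1 in the tumours and 4 between the mutants were called in some alternative. The replicate block gave 26 members lower in the tumours and 16 in Sufu KO, and 0 paralogue pairs. Its 216 assignments allow no p below 0.0278, which could still pass adjustment if enough pairs reached it.

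Differences that were not called changed sign 21 times, in 9 pairs of gene and comparison. Tumours minus Sufu KO, Dlgap2 read -0.0005 with quantile normalization and -0.0564 with array weights (-0.0983 to 0.0650 with 1 array left out), Homer1 0.0088 and 0.0577 (-0.0428 to 0.0323), and Homer2 0.0694 with array weights (-0.117 to 0.126). In Sufu KO against wildtype, Dlgap4 read -0.0144 and Lrrtm4 0.0372 with array weights, Lrrtm4 0.0038 with sex as a covariate, and Camk2d 0.0151 with quantile normalization. Ptch1, which is not a member gene, also changed sign there, to 0.0372 with sex as a covariate. With 1 array left out, Sufu KO differences ran between -0.149 and 0.0140 for Dlgap2, -0.0507 and 0.0008 for Camk2d, -0.0703 and 0.0050 for Nlgn2, and -0.0824 and 0.0682 for Lrrtm4. Tumours minus wildtype, Lrrtm2 ran between -0.214 and 0.0207. The causes were not tested.

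The 3 arrays per group and the absence of detection calls from the fits limit what dim genes such as Dlgap2 and Lrrtm1 can show.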
